A study of Rattus norvegicus with 12 samples.

Results

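The genes described here encode the machinery of regulated exocytosis and of synaptic vesicles: the SNARE proteins, the synaptotagmins and Doc2 proteins, the syntaxin-binding proteins, the priming proteins and complexins, the synapsins and SV2 proteins, and the small GTPases Rab3 and Rab27 with their partners. They were taken by gene name from the annotation of the array, which gave 94 of 33212 gene names, measured by 151 of 41012 probes. The name pattern also took in Rab30 to Rab39, small GTPases of other membrane traffic, and these 11 genes are described apart. The name rule itself uses no measured value, and 38 of the genes have several probes.

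The cells were PC12, a line from a rat adrenal pheochromocytoma that stores catecholamines in dense-core vesicles and also holds smaller synaptic-like vesicles. Cells received PACAP38 (1e-07 M), the long form of pituitary adenylate cyclase-activating polypeptide, for 5, 10, 15, 30, 60 or 120 min, and each treated RNA was set against a control RNA of the same time point, from PC12 cells that the labels call control. RNA was pooled in each group (n = 6) and hybridized on 12 two-colour arrays, with the same pair of pools on both arrays of a time point and Cy3 and Cy5 exchanged between them. Both arrays therefore measure 1 replicate. The fold on each array is given where a standard deviation would stand, and PACAP38 was not tested against control at any single time point. All cells were of this 1 line, grown in serum, and the labels name no vehicle for the control.

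In background terms, a secretory vesicle fuses when a SNARE on the vesicle (a VAMP) zips together with SNAREs on the target membrane (a syntaxin and a SNAP protein). Syntaxin-binding proteins hold the syntaxin, Munc13 and CAPS proteins prepare the vesicle, complexins act on the assembled SNAREs, and synaptotagmins sense calcium. NSF takes used SNARE complexes apart, Rab3 and Rab27 bring vesicles to the membrane, and PC12 cells are a standard model of the process. PACAP acts mainly through a receptor coupled to adenylate cyclase and is known as a secretagogue of chromaffin cells.

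The labelled line was checked against fixed marker lists in the control channel. Of 11 chromaffin cell markers on the array, 10 were well above background on all 12 arrays, among them Th, Dbh, Chga and Slc18a1, and Gata3 was so on some of them. The 7 adrenal cortex markers were well above background on none. Of 6 fibroblast markers Col1a1 and Pdgfra were detected on all 12 arrays, and of 5 endothelial and blood cell markers Cd68. Per array, the control RNA was detected on 38.4 to 49.6% of all spots and the PACAP38 RNA on 39.8 to 48.9%, and 0 spots were saturated.

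The control RNA showed which members PC12 cells express. By the scanner software's flag for signal well above background, 76 (50.3%) of the 151 member probes were detected on all 12 control channels, against 35.3% of all probes, and 44 (29.1%) were detected on none, against 45.9% of all probes. By the brightest probe of each gene, 57 of the 94 genes were detected on all 12 arrays, 11 on some and 26 on none. A dim probe gives only that its signal was not well above background, since the arrays do not count transcripts and probes differ in how brightly they hybridize. For this reason the intensities of different genes are not ranked against each other.

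Of the 13 SNARE genes of the plasma membrane and secretory vesicles, 10 were detected on all 12 arrays. Snap25, the SNAP protein of neurons and neuroendocrine cells, had a processed control intensity with a lowest value of 12070, a median of 14680 and a highest value of 27250 over the 12 arrays. Its partner Vamp2 (synaptobrevin 2) ranged from 3491 to 5152 with a median of 3850, and the syntaxin Stx1a from 114.7 to 222.1 with a median of 161.9. Each member of this neuronal SNARE trio was thus measured in every control channel. Vamp3 and Vamp8, which serve fusion in many cell types, had medians of 10810 and 12890. Stx11 and Stx19 were detected on no array. One of the 3 Vamp2 probes was also detected on no array, while the other two were detected on all.

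The group named here for SNAREs of endosomes and the Golgi, which also takes in Stx17, Stx18 and Vamp5, had the fewest undetected genes. Of its 12 genes, 11 were detected on all 12 arrays, among them Stx6, Stx7, Stx8, Stx12, Vamp4 and Vamp7, and Stx16 was detected on 2. Of 7 syntaxin-binding genes, 5 were detected throughout. These included Stxbp3 (median control intensity 1458, range 1310 to 2437), while Stxbp6 was detected on no array.

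The calcium sensors were split. Of the 19 synaptotagmin and Doc2 genes, 9 were detected on all 12 arrays, 3 on some and 7 on none. Syt5 (median control intensity 12630), Syt7 (6922), Syt17 (3126), Doc2b (3401) and Syt4 (3041) were detected on all arrays. The 7 undetected genes were Syt2, Syt6, Syt8, Syt10, Syt15, Syt16 and Doc2g. Syt1, the fast calcium sensor of synaptic vesicles, was dim in these cells: its 3 probes were detected in the control RNA on 2, 9 and 9 of the 12 arrays, with a median control intensity of 44.4 for the brightest. Syt9 was likewise detected on 9 of 12, with a median of 36.1.

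Among the 10 priming, complexin and disassembly genes, Cadps (CAPS-1, which primes dense-core vesicles; median 6610), Unc13a (Munc13-1; 43.2), Unc13b (Munc13-2; 1914) and Cplx2 (complexin 2; 437.6) were detected on all 12 arrays. Cplx1 and Cplx4 were detected on none. The single Nsf probe was detected on 2 of 12 control channels, so that Nsf could not be followed. Of the 6 synapsin and SV2 genes only Syn2 (median 252.3) and Sv2a (1987) were detected on any array, and each was detected on all 12. Syn1, Syn3, Sv2b and Sv2c were not well above background on any.

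Of the 16 genes around Rab3 and Rab27, 10 were detected on all 12 arrays and 6 on none. Rab3a (median 417.5), Rab3b, Rab3c and Rab3d, Rab27a (1397), the granuphilin gene Sytl4 (762.6), a Rab27 effector of secretory granules, and Rph3al (5960) were in the first set. In control RNA none of the 3 Rab27b probes was detected on an array, nor were Rph3a (rabphilin), Sytl1, Sytl2, Sytl3 and Sytl5. Of the 11 genes Rab30 to Rab39, 6 were detected on all arrays and 4 on none.

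**Figure D1:**
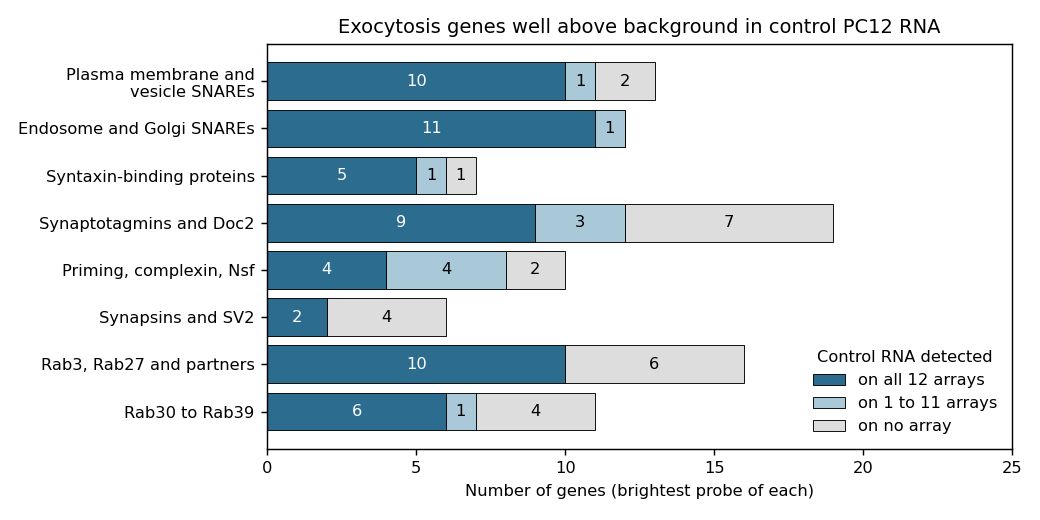
Number of member genes (horizontal axis) in each role group (vertical axis) whose brightest probe was well above background in control PC12 RNA on all 12 arrays, on 1 to 11 arrays or on none. The endosome and Golgi SNAREs have 11 of 12 genes in the first class, and the synapsins and SV2 proteins 2 of 6.

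Few member probes passed the limits set for a change, and few did over the whole array. A fold is PACAP38 over control, as the geometric mean of both arrays. A probe was counted as changed when the fold on each of the 2 arrays was at least 2, or on each at most 0.5, with a p-value of the scanner software below 0.01 on each. By this rule 0 member probes were counted at 5, 10 and 15 min, where 0, 0.0659 and 0.0902% of all probes were counted higher and 0, 0 and 0.0268% lower. At 30 and 60 min 3 of the 151 member probes were counted higher, beside 0.249 and 0.871% of all probes. At 120 min 5 were counted higher, beside 1.95% of all probes. No member probe was counted lower at any time point, beside 0.102, 0.376 and 1.53% of all probes at 30, 60 and 120 min. The members counted were the 3 Syt4 probes at 30, 60 and 120 min, and 1 probe each of Vamp1 and Vamp4 at 120 min. In bulk RNA a change in the number of cells that express a gene and a change in RNA per cell cannot be told apart.

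Syt4 encodes synaptotagmin 4, a vesicle protein whose first calcium-binding domain lacks a residue needed to bind calcium, and which is known as an immediate-early gene product in PC12 cells. Its transcript was counted higher from 30 min on all 3 probes. The probes lie on the minus strand of chr18 in rat build rn4, at chr18:23805448-23805507 for A_44_P761505 (the brightest), chr18:23806030-23806089 for A_44_P318080 and chr18:23810667-23810726 for A_43_P12638. Which exon or part of the transcript each lies in was not analysed here. The first 30 bases of each 60-base probe are shown to identify what was measured, since the size of the fold differed between the probes.
A_44_P761505: ggtgtaagtcgattgaaactatttatggct
A_44_P318080: gccaaattattaaatatgcgagttagaggt
A_43_P12638: ttcaccgtcctgagttttgacaggttctca

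At 5 and 10 min the brightest Syt4 probe had folds of 1.04 (0.952 and 1.14 on the 2 arrays) and 1.08 (0.999 and 1.16). At 15 min its intensity was 3337 in control and 3635 in PACAP38 RNA with PACAP38 in Cy5, and 3108 and 3762 with PACAP38 in Cy3. Both treated channels lay above both control channels, with a fold of 1.15 (1.09 and 1.21), which was not counted as a change. Of all measured probes, 26.1% were higher on both arrays at 15 min. At that time A_44_P318080 had a fold of 1.25 (1.25 and 1.24), and A_43_P12638 had 1.40 (1.69 and 1.15), the highest of all measured members. At 30 min the control values were 2525 and 3023 and the PACAP38 values 6754 and 8592, and the channels were again fully separated. The fold was 2.76, with 2.68 on the array with PACAP38 in Cy5 and 2.84 on the array with PACAP38 in Cy3.

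At 60 min the same probe read 2402 and 2138 in control RNA and 20570 and 18470 in PACAP38 RNA, a fold of 8.60 (8.56 and 8.64 on the 2 arrays). At 120 min it read 1734 and 1910 in control and 27940 and 29730 in PACAP38 RNA, a fold of 15.8 (16.1 and 15.6). The treated values rose from each of these time points to the next while the control values fell. The second probe, A_44_P318080, gave folds of 2.60, 7.94 and 14.5 at 30, 60 and 120 min. At 120 min it read 2039 and 2000 in control and 30900 and 27780 in PACAP38 RNA.

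The third Syt4 probe, A_43_P12638, moved the same way with a smaller fold at the later times. Its fold was 2.73 at 30 min (2.89 and 2.59 on the 2 arrays) and 4.84 at 60 min (5.54 and 4.22). At 120 min it was 6.27, with 7.50 on one array and 5.25 on the other. Its control signal was not level over the experiment. The readings were 103.9 and 111.5 at 5 min and had grown to 143.4 and 183.2 by 30 min. On the third slide they were 318.4 and 402.9 for the 60 min pool, then 574.5 and 793.7 for the 120 min pool, while the control signal of the brightest probe was lower at 120 min than at 5 min (3058 and 3784). The PACAP38 signal of the third probe at 120 min was 4307 and 4165. The 5 and 10 min arrays lay on slide 1, the 15 and 30 min arrays on slide 2 and the 60 and 120 min arrays on slide 3, so for the control signal the slide and the time point cannot be told apart between slides. With normexp background correction and loess in place of the processed intensities, the folds at 120 min were 13.2, 12.4 and 4.46 for the 3 probes in the order of the sequences. Normexp was run with an offset of 50 added to both channels, which draws the ratios of dim probes toward 1.

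**Figure D2:**
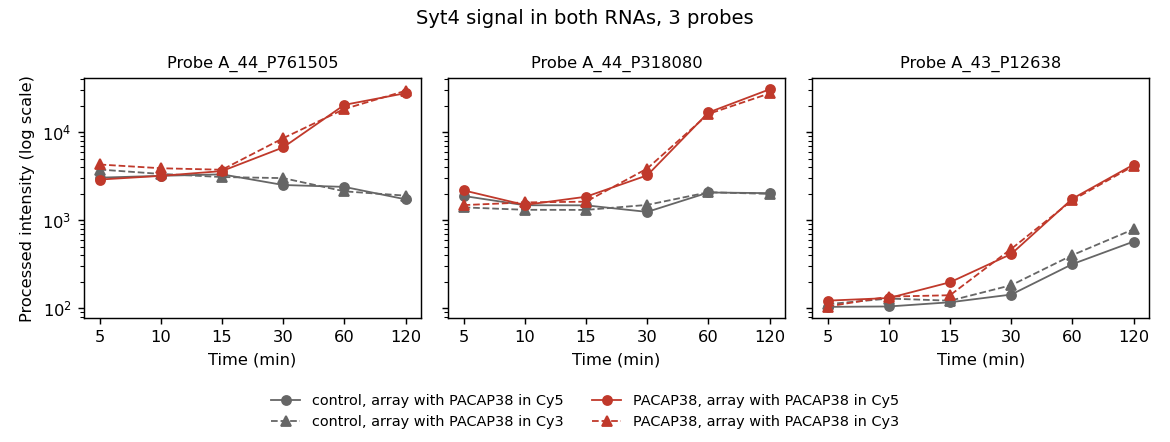
Processed intensity (log scale) of the 3 Syt4 probes in control RNA (grey) and PACAP38 RNA (red) at each time point, with a line for each of the 2 dye orientations. From 30 min the red points lie above the grey ones on every probe and array, and the control signal of A_43_P12638 goes from about 103.9 to 793.7 while that of A_44_P761505 does not rise.

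The rise of Syt4 with time was the only trend of a member past the threshold. A slope of the log2 fold on log2 minutes was fitted with limma across 20203 probes, of which 0.525% rose and 0.203% fell at a Benjamini-Hochberg adjusted p below 0.05. Among the 102 member probes in the fit, 3 rose and 0 fell. The slope of the brightest Syt4 probe was 0.96 log2 units per doubling of time (SE 0.123, adjusted p = 0.0450 by limma), that of A_44_P318080 was 0.90 (SE 0.118, adjusted p = 0.0452 by limma) and that of A_43_P12638 was 0.64 (SE 0.0606, adjusted p = 0.0418 by limma). These values lie close to the limit. Adjusted p was 0.894 for all 3 with the slide as a block and 0.0545 to 0.0554 with normexp and loess, while the slopes of the 3 probes kept their sign under every alternative. At an unadjusted p below 0.05, 9 member probes rose and 14 fell, together 22.5% of the members in the fit, beside 28.7% of all fitted probes.

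Vamp1 (synaptobrevin 1), the vesicle SNARE that shares its role with Vamp2, was counted at 120 min on 1 of 2 probes. The probes lie on the plus strand of chr4 in rn4, A_44_P320894 at chr4:161337224-161337283 and A_43_P11707 at chr4:161338592-161338651. Their first 30 bases are given because they read the gene differently.
A_44_P320894: gagctgacgccttgcaggcaggagcgtcag
A_43_P11707: tgaagtgtctgagaagttagcatggctgag

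Probe A_44_P320894 read 169 and 163.8 in control RNA and 435.2 and 357.4 in PACAP38 RNA at 120 min, a fold of 2.37 (2.58 with PACAP38 in Cy5, 2.18 with PACAP38 in Cy3). Both treated channels lay above both control channels. At 30 min the order was the opposite, with 92.2 and 96.3 in control and 57.2 and 59.0 in PACAP38 RNA, a fold of 0.616 (0.621 and 0.612). At 60 min its fold was 0.721 (0.725 and 0.718), the lowest of all measured members at that time.

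The other Vamp1 probe, A_43_P11707, had folds on the 2 arrays at 120 min of 0.405 and 1.70, on opposite sides of 1. It was well above background in the control RNA on 9 of 12 arrays. With normexp and loess the fold of A_44_P320894 at 120 min was 1.44, which does not reach 2. The Vamp1 call thus rested on 1 probe and on the processed intensities. Because the normexp offset draws the ratios of dim probes toward 1, the lower normexp fold does not decide whether Vamp1 changed.

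Vamp4, a SNARE of the trans-Golgi network and endosomes, has 6 probes on the plus strand of chr13. The probe counted at 120 min was A_44_P708829 (chr13:78268530-78268589, rn4). The brightest, A_44_P745177, lies at chr13:78269698-78269757. The first 30 bases of both are shown because the fold of only one of them passed the limit.
A_44_P708829: atcagattttgtgttttcacatagaaaggt
A_44_P745177: cctttgtgttcatgtgagattgtactgtag

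At 120 min probe A_44_P708829 read 196.4 and 198.4 in control and 404.7 and 429.2 in PACAP38 RNA, a fold of 2.11 (2.06 and 2.16). The brightest Vamp4 probe read 4023 and 3916 in control and 6072 and 5100 in PACAP38 RNA, a fold of 1.40 (1.51 and 1.30). A_44_P706953 had a fold of 1.70 (1.60 and 1.80), and those of A_44_P155775 and A_44_P155773 were 1.38 and 1.32. All 5 Vamp4 probes with both RNAs well above background on both arrays were higher on both arrays at 120 min, and only one reached 2-fold. With normexp and loess the counted probe had a fold of 1.44, under the limit.

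**Figure D3:**
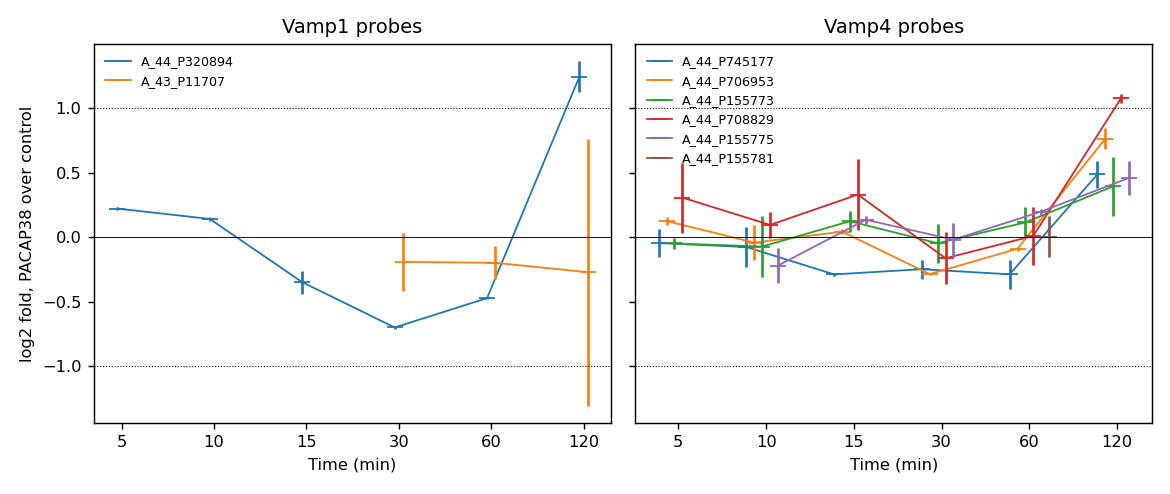
log2 fold of PACAP38 over control (vertical axis) by time in minutes (horizontal axis) for each probe of Vamp1 and Vamp4 with both RNAs well above background on both arrays. A tick is the mean of both arrays, a vertical bar joins the 2 arrays, and dotted lines mark 2-fold. Vamp1 probe A_44_P320894 goes from -0.70 at 30 min to 1.25 at 120 min, while the arrays of the other Vamp1 probe fall on both sides of 0 at 120 min.

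The promoter letters of Syt4 and Vamp1 are printed because cyclic AMP, which PACAP receptors raise, is known to act through CREB at the motif TGACGTCA. A shorter form of it was also searched, with the letters TGACG. On the opposite strand this short form reads CGTCA. The window is the 250 bases before the annotated start, from RefSeq on build GRCr8, on the gene's strand, with motif letters in capitals. The full motif contains the short form on both strands. Syt4 (minus strand) is shown at chr18:23320864-23321113 and Vamp1 (plus strand) at chr4:159698644-159698893.
Syt4: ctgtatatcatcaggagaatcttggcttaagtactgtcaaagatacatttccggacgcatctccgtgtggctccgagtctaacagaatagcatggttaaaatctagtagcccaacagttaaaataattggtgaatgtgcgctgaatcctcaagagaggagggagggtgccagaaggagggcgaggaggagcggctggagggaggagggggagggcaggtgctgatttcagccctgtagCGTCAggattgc
Vamp1: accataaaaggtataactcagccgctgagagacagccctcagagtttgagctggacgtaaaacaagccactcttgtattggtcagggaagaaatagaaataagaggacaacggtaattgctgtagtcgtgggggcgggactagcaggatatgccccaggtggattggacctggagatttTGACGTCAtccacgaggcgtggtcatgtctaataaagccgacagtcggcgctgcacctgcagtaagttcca

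The Syt4 window holds 1 short form, beginning 12 bases before the start, and the Vamp1 window holds the full motif, beginning 71 bases before it. The Vamp4 window holds neither. Over all 33469 promoters of the table, searched on both strands, 1.59% hold the full motif and 18.2% the short form. Of 82 promoters of 75 member genes, 2 (2.44%) hold the full motif, those of Vamp1 and Syn1, and 19 (23.2%) the short form. Syn1 was below detection in both RNAs at 60 and 120 min. Several genes with the short form, such as Vamp2, Stx6 and Rab3a, were not counted as changed. A match describes letters and is no measurement of binding.

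Of the 151 member probes, 78 to 89 per time point had both RNAs well above background on both arrays, and 86 probes of 58 genes did at 120 min. Among these, only probes of Syt4, Vamp1 and Vamp4 had a mean fold past 2-fold at any time point. Their median log2 fold was between -0.03 and 0.03 at every time point, and the median over all such probes was between -0.02 and 0.00. At 120 min it was 0.03 for the members and -0.02 over all. For a single member probe, the 2 arrays of a time point differed by 0.148 to 0.261 log2 units in the median. At 120 min 33 (38.4%) of the measured member probes were higher on both arrays, 31 (36.0%) were lower on both and 22 pointed in opposite directions. Over all such probes 33.9% were higher and 40.2% lower. At 10 min 30.4% of the measured members were higher on both arrays and 10.1% lower (17.3 and 18.8% of all). The balance was the opposite at 30 min, with 8.86% higher and 31.6% lower (16.2 and 22.2% of all), and at 60 min, with 18.0% higher and 40.4% lower (25.9 and 35.2% of all). At 5 min 20.5% were higher and 8.97% lower (18.3 and 17.6% of all), and at 15 min 27.8% lay on each side (26.1 and 27.1% of all).

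Counting changes of at least 1.5-fold with the same p-value limit gave 6 member probes higher and 4 lower at 120 min, beside 3.03 and 3.85% of all probes. The higher ones were those already counted and Vamp4 probe A_44_P706953. The lower ones were Doc2a, Stx17, Stx2 and Rab3il1. Doc2a, a calcium-binding C2 domain protein, read 377.6 and 320.6 in control and 200.4 and 182.8 in PACAP38 RNA, a fold of 0.550 (0.531 and 0.570). Stx17, a syntaxin of autophagosomes, had a fold of 0.587 (0.565 and 0.610) and Stx2, a syntaxin of the plasma membrane, of 0.607 (0.614 and 0.600). In Doc2a, Stx17 and Stx2 both treated values lay below both control values. Rab3il1, a Rab3 exchange factor, read 117 and 137.2 in control and 59.0 and 26.6 in PACAP38 RNA at 120 min, ratios of 0.504 and 0.194 on the 2 arrays. The PACAP38 signal of Rab3il1 passed the scanner's background test on 1 of these 2 arrays, and its mean fold was 0.313 from the processed intensities but 0.837 with normexp and loess. With normexp and loess the folds were 0.775 for Doc2a, 0.807 for Stx17 and 0.613 for Stx2.

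The lowest measured folds at 60 min were all smaller changes. After Vamp1 came Stx6 probe A_42_P544887 (0.738, with 0.751 and 0.726 on the 2 arrays) and Rab3a (0.804, with 0.847 and 0.762). Stx6 is a syntaxin of the trans-Golgi network, and the fold of its brightest probe was 0.925, with 0.766 and 1.12 on the 2 arrays. Rab3a, the main Rab of synaptic vesicles, read 533.8 and 551.3 in control and 386.3 and 283.7 in PACAP38 RNA at 120 min, a fold of 0.610 (0.724 and 0.515). The highest 3 measured folds at 60 and at 120 min were those of the 3 Syt4 probes.

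The neuronal SNARE trio was near the control level at 120 min. Snap25 read 27250 and 22900 in control and 29360 and 26970 in PACAP38 RNA, a fold of 1.13 (1.08 and 1.18), and its second probe had a fold of 1.42 (1.45 and 1.39). Vamp2 had a fold of 1.22 (1.24 and 1.21). Stx1a had 1.46 on one array and 0.837 on the other, so that it had no direction. Snap25 and Vamp2 were higher on both arrays, by less than 1.5-fold on each. Their log2 folds of 0.17 and 0.29 became 0.17 and 0.23 with normexp and loess, but -0.011 and 0.012 with normexp and median centring.

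Of the other calcium sensors, Syt7, a high-affinity sensor of chromaffin granules, had a fold of 1.36 at 120 min (1.44 and 1.29) and Syt5 of 1.34 (1.22 and 1.47). Doc2b was at 1.01 (1.09 and 0.934). Syt17 had a fold of 0.664 (0.692 and 0.638). The brightest Syt1 probe was at 1.62 (1.84 and 1.42), with control values of 66.1 and 54.8, and its normexp fold was 1.1. Another Syt1 probe, A_44_P125913, read 0.709 and 1.24 on the 2 arrays. Syt9 was above background on too few of the channels for a fold at 120 min, and at 60 min its arrays read 1.47 and 0.837. Syt4 was thus the only one of the 9 calcium sensor genes detected on all 12 arrays whose fold reached 2 at any time point.

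Cadps had a fold of 0.865 at 120 min (0.856 and 0.874) and Cplx2 of 1.06 (1.15 and 0.976), while the dimmer Cplx2 probe read 2.49 on one array and 0.735 on the other. Unc13a, with control values of 48.3 and 57.3, read 107.2 and 77.6 in PACAP38 RNA, folds of 2.22 and 1.35, and was not counted. Its normexp fold was 1.1. Sv2a had a fold of 1.18 (1.19 and 1.17) and Syn2 of 0.974 (0.996 and 0.951). Rab27a was at 0.762 (0.943 and 0.616) and Sytl4 at 0.934 (0.958 and 0.911). Cplx1, Syn1, Rph3a and Rab27b have no fold at 120 min, since neither RNA was detected, and Nsf, detected in control RNA on 2 of 12 arrays, is given none either.

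By role, the median log2 fold at 120 min was 0.16 for 16 probes of plasma membrane and vesicle SNAREs, -0.06 for 23 of endosome and Golgi SNAREs, 0.23 for 6 of syntaxin-binding proteins and 0.13 for 17 of synaptotagmins and Doc2. It was 0.08 for 5 probes of priming, complexin and disassembly genes, -0.08 for 10 of the Rab3 and Rab27 group and -0.23 for 7 of Rab30 to Rab39. The 2 measured probes of synapsins and SV2 proteins had a median of 0.10. Each of these medians was smaller than 0.3 on the log2 scale.

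**Figure D4:**
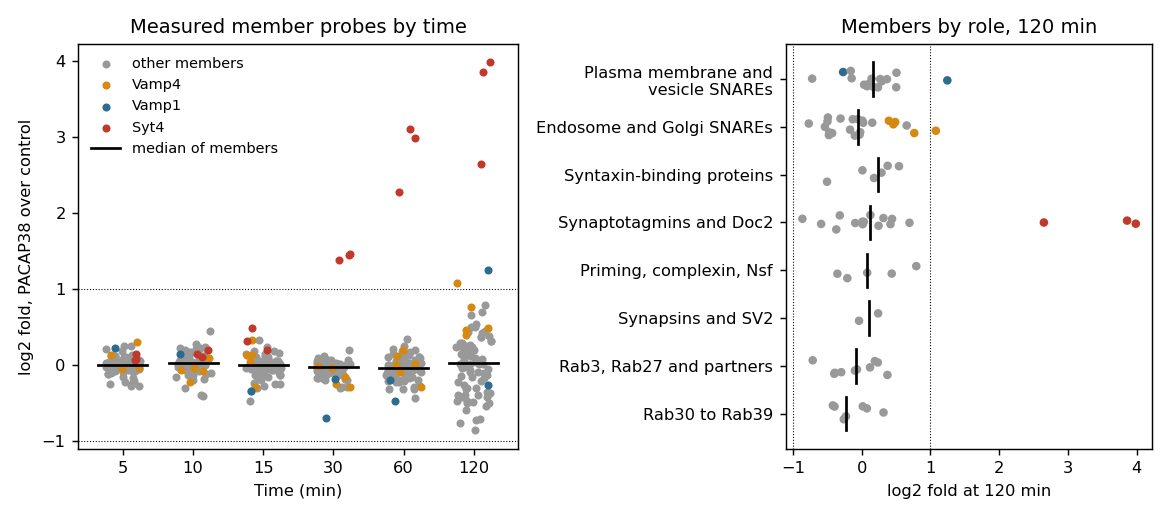
Left, log2 fold of PACAP38 over control (mean of both arrays) of every member probe with both RNAs well above background, by time in minutes; right, the same at 120 min by role group. Black bars are medians and dotted lines mark 2-fold; the Syt4 points leave the rest at 30 min and reach 3.99 at 120 min, while most other members stay between the dotted lines.

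Other genes of vesicle biogenesis, cargo and docking were taken from a list of 60 further genes with 96 probes. None of them was counted at 5 to 60 min, and at 120 min 1 probe was higher and 1 lower of the 96, beside 1.95 and 1.53% of all probes. Scg2 (secretogranin II), a granin of dense-core vesicles, had a fold of 2.04 (2.05 and 2.03), after 1.39 (1.36 and 1.42) at 60 min. Its normexp fold at 120 min was 2.01. Ppfia3 (liprin alpha 3), a protein of the presynaptic active zone, was lower on 1 of 3 probes with a fold of 0.404 (0.482 and 0.339) and a normexp fold of 0.692. In the fit of the slope on log2 time, 71 probes of this list took part, 0 rose and 1 fell. This was a probe of Ppfia4 (liprin alpha 4), with a slope of -0.43 (SE 0.0590, adjusted p = 0.0470 by limma). With the slide as a block 0 of all fitted probes fell, so this call was lost too. The 2 arrays lay on opposite sides of 1 for this probe at each time point from 5 min (6.06 and 0.666) to 60 min (1.09 and 0.253). At 120 min both were below 1 (0.813 and 0.261). At no time point were both RNAs well above background on both arrays, and it was 1 of 3 probes. The median log2 fold of the list at 120 min was 0.06 over 60 measured probes.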

How the data were processed

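The authors made the processed Cy3 and Cy5 intensities with Agilent's Feature Extraction; the deposited intensities are background-subtracted and LOWESS dye-normalized, beside scanner mean and background intensities. The file headers name version 12.0.3.1 and the submitters' processing notes 11.0.1.1. The deposited table holds the log10 ratio of Cy5 over Cy3, not turned for the dye exchange. The deposited p-value of a spot tests its log ratio, and the deposited flags mark well above background and outliers.

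PACAP38 over control ratios were taken from processed intensities. Control spots (1639 per array) and outlier spots (197 to 267) were left out, and spots of 1 probe were averaged (median p-value). Folds were summarised over probes with both RNAs well above background on both arrays, and exceptions are stated beside the value; a change was counted at 2-fold and p below 0.01 on both arrays. The number of arrays limits the precision, and both arrays hold the same pools. Slopes were fitted with limma 3.58.1 in R 4.3.3, to probes with 1 or both channels well above background on the 2 arrays of some time point. In a test on simulated data over 20203 probes, slopes of 0.25, 0.5 and 1 were recovered for 40, 78 and 98% of changed probes. The simulated noise was independent between time points and held no slide effect, so recovery in the real data may be lower. Other steps used Python 3.11.15 with pandas 2.3.3.

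Named members were those counted or with a significant slope, 22 core genes, and the 3 highest and 3 lowest measured folds at 60 and 120 min; other genes are named from their detection, from the 1.5-fold limit or as examples chosen after their values were seen. The brightest probe stands for a gene. Members and lists were chosen with earlier results of these data known. Of the member probes, 128 matched RefSeq, and 0 gene names changed. Alternatives were other limits, 1 array alone, normexp (offset 50) with loess or median centring, the deposited ratios, filters, other probes, and other forms of the trend. Some core and marker genes are not reported here, and the proteome was not analysed here.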

Additional observations from a re-analysis of the deposited data

Results flagged for a closer look

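Vamp1 probe A_44_P320894 was higher with PACAP38 on both arrays at 120 min (fold 2.37) and lower on both arrays at 3 earlier time points with both RNAs well above background. At 15 min its fold was 0.786, with 0.835 and 0.739 on the 2 arrays. At 30 min it was 0.616, with 0.621 and 0.612, and the 60 min pools gave 0.721, with 0.725 and 0.718. The spot p-values at 15 min were 0.302 and 0.0876. At 30 min they were 0.0125 and 0.0102, and at 60 min 0.0448 and 0.0377, all above the limit of 0.01. With normexp and loess the log2 fold at 60 min was -0.16, in place of -0.47. The difference between the time points was not tested, since each is 1 replicate.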

How the results depend on the processing

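The 3 Syt4 probes at 60 min were also counted under normexp, with loess or median centring (0.373 and 0.266% of all probes, in place of 0.871%); at 30 min 2 of them were (0.122 and 0.1%, in place of 0.249%), without A_43_P12638 (fold 1.66 and 1.62). At 120 min both normexp settings gave 3 members higher in place of 5 (of all probes 0.717% with loess and 0.437% with median centring, in place of 1.95%), without Vamp1 (log2 fold 0.52 with loess, 0.41 with median centring) and Vamp4, and the other Vamp1 probe had the opposite sign (-0.27). The normexp offset draws the ratios of dim probes toward 1, so a call lost under normexp does not decide whether a dim member changed. With 1 probe per gene the counts at 30, 60 and 120 min were 1, 1 and 2, by construction. The 1.5-fold limit gave 4 lower at 120 min. Leaving out 1 array gave 1 to 2 higher at 5 min, 0 to 1 lower at 10 min, 0 to 1 higher and 0 to 2 lower at 15 min, 3 to 6 higher and 1 lower at 60 min, and 6 to 8 higher and 1 to 2 lower at 120 min; of all probes 1 array gave 0.942 to 1.47% higher at 5 min, 0.791 to 0.993% lower at 10 min, 0.78 to 0.953% higher and 0.661 to 1.03% lower at 15 min, 2.17 to 2.37% higher and 1.43 to 1.96% lower at 60 min, and 3.39 to 3.70% higher and 3.21 to 3.98% lower at 120 min. In the trend, time in minutes gave 12 rising and 14 falling members (11.8 and 13.7%, beside 10.2 and 16.2% of all probes), and the filter on all 12 arrays 1 falling (1.23%, beside 1.47%). The slide block, both normexp settings, no filter, and leaving out either array or any time point but 5 min gave 0 rising in place of 3, and at most 0.133% of all probes in place of 0.525%; the cause was not tested. Of the alternatives for named members, 226 moved the fold by less than 1 SD of the arrays (or kept the call), 70 by more, and the calls that changed were those of Vamp1 and, upward, Unc13a on 1 array and a Vamp4 probe. Replicate numbers mark the dye orientation, and no paired analysis was possible because the numbers do not stand for separate samples. Signal over background limits the dim members, and the single pool pair per time point limits all folds.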
